A study of Homo sapiens with 6 samples.

Results

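The proteins of the small (40S) subunit of the cytosolic ribosome were followed through the mRNAs that code for them. The set held 28 named genes, RPSA, FAU and 26 genes with RPS symbols, chosen by gene symbol without paralogs or pseudogenes, out of 30726 rows in the deposited table. All 28 passed the filter on low values (RPKM not under 1 in 3 or more of 6 libraries), which 10253 rows passed. Some other 40S protein genes were not in the set and are not analysed here.

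The values are from RNA of polysome fractions of 3 established human breast cancer cell lines. Hypoxic cells were kept at 1% oxygen for 8 hours and normoxic cells at 21% oxygen. SUM1315 is a triple negative line, SKBR3 a luminal line with HER2 and T47D a luminal A line, all labelled wild type, and each gave 1 library per oxygen level. Each line had its own medium, that of SUM1315 with insulin and EGF and that of T47D with insulin. The stated question was how hypoxia affects which transcripts are translated. All cells, hypoxic and normoxic, received cycloheximide, which holds ribosomes on mRNA, before lysates with equal protein were run on sucrose gradients. The unit of the table was read as RPKM (reads per kilobase, scaled for the size of the library), so a difference is one in the share of the polysome RNA sequenced. RNA of whole lysates was not analysed here, so more or less mRNA in the cell and more or less of it on ribosomes cannot be told apart. In these bulk samples fewer cells of a kind and less RNA per cell cannot be told apart either.

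The 40S subunit binds the mRNA, scans it with initiation factors and reads its codons. It is built of 18S rRNA and a set of proteins, each in a single copy, and its structure is divided into a head, a body and a platform. Most mRNAs of ribosomal proteins begin with a C and a run of pyrimidines, the 5 prime terminal oligopyrimidine (TOP) motif, through which mTORC1 and the RNA-binding protein LARP1 set their translation. Low oxygen is known to restrain mTORC1, and cells often lower ribosome production under such stress.

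The start-site sequences are shown first, because the TOP motif is the sequence feature by which these mRNAs are known to be controlled together. RefSeq start sites (GRCh38.p14) were matched by symbol for 25 of the 28 genes, all but RPS2, RPS15A and RPS20. Where a gene had several listed starts the first was used, whereas percentages over all promoters below count every listed start. Each run holds 10 bases before and 20 bases from the annotated start, read 5′ to 3′ on the coding strand. Capitals mark a C at the annotated start and the pyrimidines (C or T) that follow without a break. Those shown first are the 10 matched genes that were called lower under hypoxia, of which RPS7 has a run of 3 and RPS4X none.
RPS13, chr11:17077648-17077677, minus strand: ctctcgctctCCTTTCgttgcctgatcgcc
RPS18, chr6:33272065-33272094, plus strand: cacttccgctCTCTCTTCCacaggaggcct
RPS25, chr11:119018324-119018353, minus strand: gcagcgcttcCTTTTTgtccgacatcttga
RPS3A, chr4:151099618-151099647, plus strand: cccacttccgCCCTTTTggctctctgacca
RPS27, chr1:153990752-153990781, plus strand: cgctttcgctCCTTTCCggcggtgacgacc
RPS7, chr2:3575250-3575279, plus strand: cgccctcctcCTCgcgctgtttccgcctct
RPS24, chr10:78033853-78033882, plus strand: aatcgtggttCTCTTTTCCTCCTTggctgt
RPS19, chr19:41860245-41860274, plus strand: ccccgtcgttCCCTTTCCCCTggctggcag
RPS4X, chrX:72277229-72277258, minus strand: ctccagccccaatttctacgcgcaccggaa
RPS10, chr6:34426050-34426079, minus strand: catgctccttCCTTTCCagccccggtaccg
The next are 5 of the 6 genes with the smallest falls or a rise in log2 fold change, and then RPS6.
RPS9, chr19:54200848-54200877, plus strand: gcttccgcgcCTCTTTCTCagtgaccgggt
RPS29, chr14:49598691-49598720, minus strand: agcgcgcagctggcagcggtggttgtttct
RPS21, chr20:62387093-62387122, plus strand: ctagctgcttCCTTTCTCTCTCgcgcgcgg
RPSA, chr3:39406710-39406739, plus strand: tgccgcctgtCTTTTCCgtgctacctgcag
RPS28, chr19:8321486-8321515, plus strand: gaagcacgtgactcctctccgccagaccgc
RPS6, chr9:19380217-19380246, minus strand: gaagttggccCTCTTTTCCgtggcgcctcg

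A start C with at least 4 more pyrimidines, 5 or more in a row on the coding strand, stood at the annotated start of 18 of the 25 genes (72.0%), against 4.07% of 35116 promoters in the table and 5.90% of the 7960 tested genes with a match. In RPS28 the annotated first base is an A, with a C and further pyrimidines right after it. Allowing the run to start up to 10 bases on either side of the annotated start gave 23 of 25 (92.0%), against 33.5% of all promoters, with RPS4X and RPS29 the exceptions. A match describes these letters and not the start that the cells used.

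Under hypoxia the polysome-associated mRNAs of the 40S proteins were lower in most cases. Of the 28, 11 fell past the threshold (limma adjusted p under 0.05 over all genes tested, cell line as a block), none rose and 17 did not pass. Over all 10253 tested genes 2.26% were called lower and 4.12% higher. The 11 were RPS15A, RPS13, RPS18, RPS25, RPS3A, RPS27, RPS7, RPS24, RPS19, RPS4X and RPS10, with log2 fold changes from -0.87 to -0.61. At an unadjusted p under 0.05 (limma), 22 of the 28 were lower and none was higher. Over all 10253 tested genes 1235 were lower and 1457 higher at that level. The same background holds for the unadjusted counts of the lists further below. Of the 28 log2 fold changes 27 were below 0, with a median of -0.59 on the log2(RPKM + 1) scale, where the median over all tested genes was -0.01. The replicates of this test are the 3 lines, and the labels name no further cultures. Its p-values and SEs rest on a moderated variance, with 2 residual and 8.02 prior degrees of freedom. They draw more on the variance of all tested genes than on the spread of a gene's own 3 pairs of libraries. The log2 ratio was below 0 in all 3 lines for 25 of the 28 mRNAs, and for 25.2% of all tested genes.

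**Figure D1:**
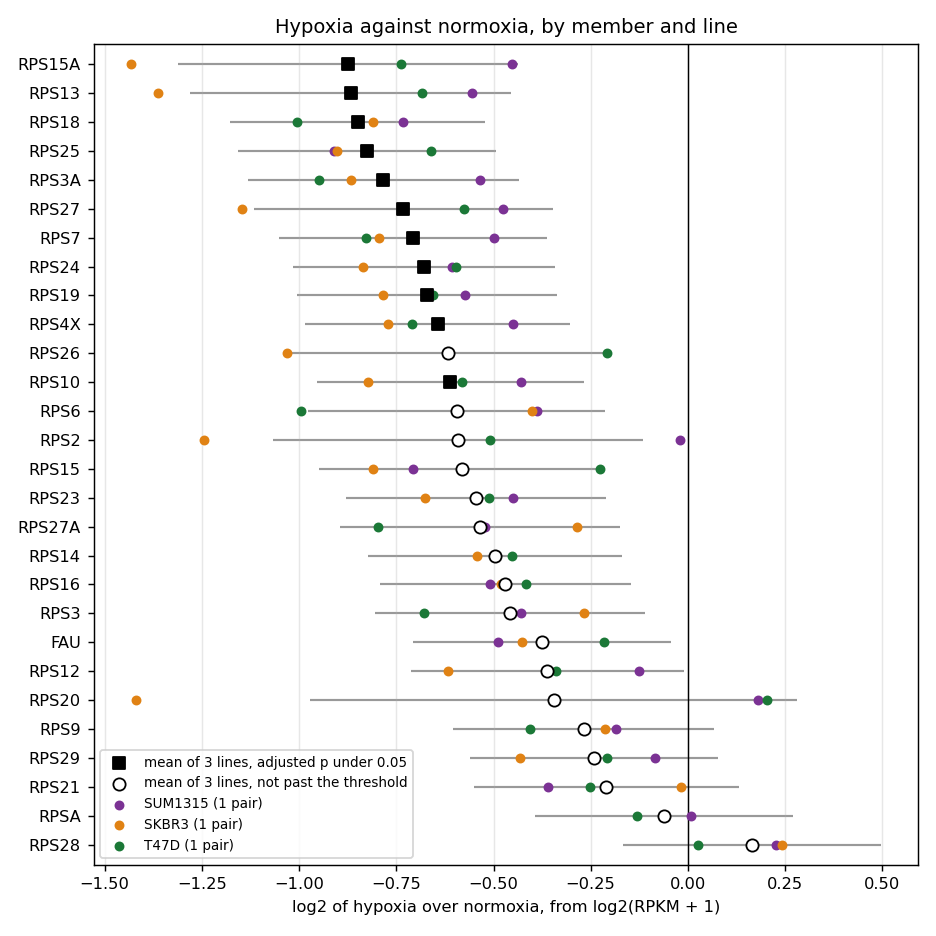
Log2 of hypoxia over normoxia for each of the 28 mRNAs (rows, ordered by the mean of 3 lines), from log2(RPKM + 1). Coloured points are the single pair of each line, black squares (adjusted p under 0.05) and open circles are the means, and bars are 95% confidence intervals of the limma fit. All but RPS28 have a mean below 0, and the SKBR3 point of RPS20 stands at -1.42 apart from the other 2 lines.

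By line, the median log2 ratio of the 28 was -0.46 in SUM1315 cells, -0.78 in SKBR3 cells and -0.54 in T47D cells, against medians over all tested genes of 0.00, -0.05 and 0.03. A log2 ratio at or below -0.5 was reached by 10 of the 28 in SUM1315, where 4.48% of all tested genes reached it. In SKBR3 18 of the 28 did, where 8.64% of all tested genes reached it. In T47D 16 of the 28 did, where 10.5% of all tested genes reached it. These ratios each set a single library against another, so neither they nor the differences between lines carry a test.

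RPS18, a protein of the head that contacts the large subunit, had the highest RPKM of the 28 in normoxic SUM1315 and T47D. RPS18 had 686, 370.1 and 688 RPKM in hypoxic SUM1315, SKBR3 and T47D cells, against 1140.1, 649.8 and 1383 RPKM in normoxic cells of the same lines. Each hypoxic library was lower than the normoxic library of its line, but the groups overlapped, since hypoxic SUM1315 and T47D lay above normoxic SKBR3. The log2 fold change was -0.85 ± 0.15 (SE, n = 3 lines; limma adjusted p = 0.013). The gene lies on chromosome 6 at 33272010 to 33276510 (plus strand) in GENCODE release 29 (GRCh38), and the VPS52 gene overlaps its exons on the other strand.

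RPS25 lies in the head and is needed by several viral and cellular internal ribosome entry sites. RPS25 had 381, 216 and 507 RPKM in hypoxic SUM1315, SKBR3 and T47D cells, against 717, 405 and 802 RPKM in normoxic cells of the same lines. Its log2 ratio was -0.91 (SUM1315), -0.90 (SKBR3) and -0.66 (T47D), and its log2 fold change -0.82 ± 0.15 (SE, n = 3 lines; limma adjusted p = 0.015). RPS18 and RPS25 were the 2 mRNAs whose calls held with any 1 line left out, with adjusted p up to 0.049 for RPS25 and 0.039 for RPS18.

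RPS15A and RPS13 had the lowest log2 fold changes, and both are rRNA-binding proteins of the body and platform that bacteria also have. RPS15A had 77.5, 38.8 and 115 RPKM in hypoxic SUM1315, SKBR3 and T47D cells, against 106, 107 and 192 RPKM in normoxic cells of the same lines. RPS13 had 110.2, 113 and 134 RPKM in hypoxic SUM1315, SKBR3 and T47D cells, against 162, 292 and 216 RPKM in normoxic cells of the same lines. The 3 hypoxic libraries of RPS13 were all below the 3 normoxic ones, while those of RPS15A overlapped through T47D. Log2 fold changes were -0.87 ± 0.20 (SE, n = 3 lines; limma adjusted p = 0.032) for RPS15A and -0.87 ± 0.19 (SE, n = 3 lines; limma adjusted p = 0.027) for RPS13. In both the SKBR3 pair moved most, with log2 ratios of -1.43 and -1.36, against -0.45 and -0.55 in SUM1315.

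RPS3A, which sits on the platform near the exit of the mRNA, completed the 5 lowest. RPS3A had 244, 131 and 235 RPKM in hypoxic SUM1315, SKBR3 and T47D cells, against 354, 239.6 and 454 RPKM in normoxic cells of the same lines. Here T47D moved most, with a log2 ratio of -0.95, and the log2 fold change over lines was -0.78 ± 0.16 (SE, n = 3 lines; limma adjusted p = 0.022).

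The other 6 mRNAs called lower had log2 fold changes of -0.73 ± 0.17 (RPS27, a zinc finger protein of the platform), -0.71 ± 0.15 (RPS7, which can bind MDM2 outside the ribosome), -0.68 ± 0.15 (RPS24), -0.67 ± 0.15 (RPS19), -0.64 ± 0.15 (RPS4X, encoded on the X chromosome) and -0.61 ± 0.15 (RPS10; SE, n = 3 lines). Their limma adjusted p values ran from 0.029 to 0.046. RPS7 was alike in the 3 hypoxic libraries. It had 71.4, 70.9 and 74.3 RPKM in hypoxic SUM1315, SKBR3 and T47D cells, against 101, 124 and 133 RPKM in normoxic cells, with no overlap of the groups. Hypoxic and normoxic libraries did not overlap in 7 of the 28 mRNAs (RPS7, RPS13, RPS15, RPS16, RPS19, RPS27 and RPS27A), and the same held, downward, for 1.8% of all tested genes.

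Of the 11 calls, 9 were lost when 1 line or another was left out. The prior degrees of freedom of these fits were 70.1 without SUM1315, 7.98 without SKBR3 and 11.5 without T47D. Without SUM1315 the p-values therefore drew very little on the spread of a gene's own pairs. Calls and counts from these fits do not compare directly as measures of dependence on a line. Without SUM1315 7 of the 11 kept their call, and RPS4X, RPS10, RPS19 and RPS24 lost it (adjusted p = 0.054 to 0.064). Without SKBR3 only RPS18 and RPS25 kept it, and the other 9 had adjusted p values of 0.061 to 0.14. Without T47D RPS13, RPS18 and RPS25 kept it, and the other 8 had adjusted p values of 0.051 to 0.10.

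**Figure D2:**
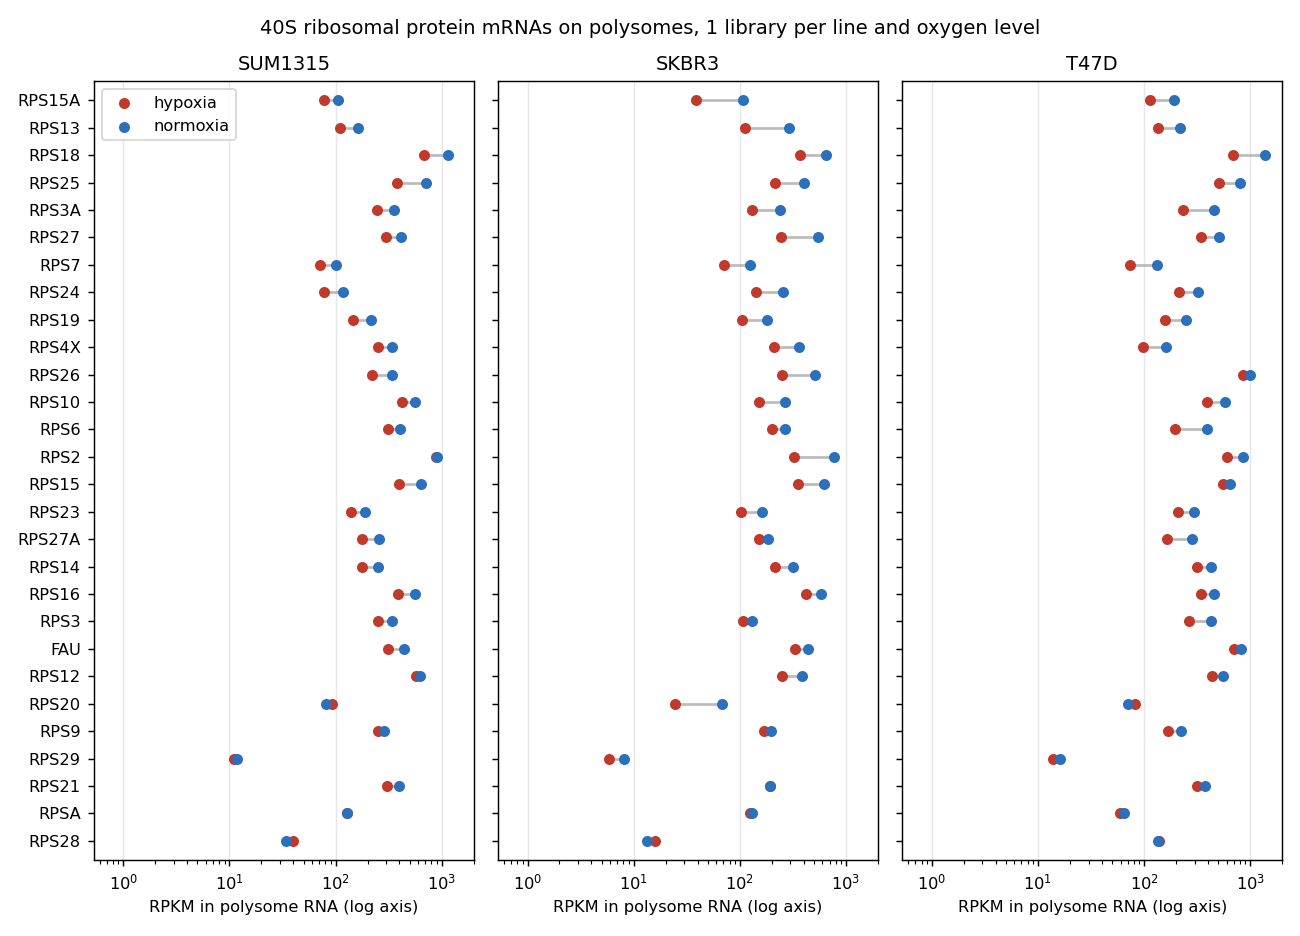
RPKM in polysome RNA (log axis) of the 28 mRNAs in hypoxic (red) and normoxic (blue) cells of SUM1315, SKBR3 and T47D, 1 library per point, in the row order of the log2 changes. RPS18 and RPS2 stand at the high end, at up to 1383 RPKM, and RPS29 at the low end in every library, at 5.80 to 16.2 RPKM.

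Loss of 1 copy of several of these genes causes Diamond-Blackfan anaemia. Among them RPS27, RPS7, RPS24, RPS19 and RPS10 were called lower, while RPS26 (-0.62), RPS29 (-0.24) and RPS28 (0.16) were not. The genes named are examples and not a full list of those reported for the disease. RPS14 is the gene of the 5q- syndrome, an acquired anaemia, and is described here with RPS19 and RPS26. RPS19 had 145, 105 and 159 RPKM in hypoxic SUM1315, SKBR3 and T47D cells, against 216, 182 and 251 RPKM in normoxic cells of the same lines. The groups of RPS19 did not overlap, and its log2 fold change was -0.67 ± 0.15 (SE, n = 3 lines; limma adjusted p = 0.031). RPS26 had 223, 248 and 856 RPKM in hypoxic SUM1315, SKBR3 and T47D cells, against 341, 508 and 989 RPKM in normoxic cells of the same lines. RPS26, whose protein lines the mRNA exit and is carried by the chaperone TSR2, was most abundant in T47D with the ratio nearest to 0 there, at log2 ratios of -0.61 (SUM1315), -1.03 (SKBR3) and -0.21 (T47D). It did not pass, at -0.62 ± 0.18 (SE, n = 3 lines; limma adjusted p = 0.067), but did without T47D (-0.82, adjusted p = 0.037). RPS14 had 179, 216 and 314 RPKM in hypoxic SUM1315, SKBR3 and T47D cells, against 252, 315 and 430.2 RPKM in normoxic cells of the same lines. RPS14 had nearly the same log2 ratio in each line, -0.49 (SUM1315), -0.54 (SKBR3) and -0.45 (T47D), and did not pass either, at -0.50 ± 0.15 (SE, n = 3 lines; limma adjusted p = 0.070).

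RPS2 and RPS3 are at the mRNA entry, and RPS10 and RPS20 carry the ubiquitin marks set by ZNF598 when ribosomes collide. RPS3 had 253, 108 and 265 RPKM in hypoxic SUM1315, SKBR3 and T47D cells, against 341, 130.1 and 425 RPKM in normoxic cells of the same lines. Its log2 fold change was -0.46 ± 0.16 (SE, n = 3 lines; limma adjusted p = 0.10). RPS10 had 419.9, 151 and 389 RPKM in hypoxic SUM1315, SKBR3 and T47D cells, against 566, 268 and 582 RPKM in normoxic cells of the same lines. RPS10 fell by 0.61 on the log2 scale (SE 0.15, n = 3 lines; limma adjusted p = 0.046). The RPS10-NUDT3 readthrough gene shares exons with it.

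RPS2 had 891, 327 and 599 RPKM in hypoxic SUM1315, SKBR3 and T47D cells, against 903, 776 and 852 RPKM in normoxic cells of the same lines. RPS2 was nearly level in SUM1315 and much lower under hypoxia in SKBR3, with log2 ratios of -0.02 (SUM1315), -1.24 (SKBR3) and -0.51 (T47D). Its log2 fold change was -0.59 ± 0.21 (SE, n = 3 lines; limma adjusted p = 0.12). It was -0.88 without SUM1315 (adjusted p = 0.012), past the threshold, and -0.26 without SKBR3 (adjusted p = 0.46). The fit without SUM1315 had 70.1 prior degrees of freedom, so its p-value hardly reflects how far the SKBR3 and T47D ratios lie apart. Rows named as RPS2 pseudogenes held 20.3%, 35.7% and 26.1% of the RPKM of RPS2 and its pseudogenes together in hypoxic SUM1315, SKBR3 and T47D cells, and 19.2%, 19.6% and 22.8% in normoxic cells. Nearly all of it was in RPS2P5, at 172 to 241 RPKM, so how reads were divided between the 2 genes touches the value of RPS2. With its pseudogenes added RPS2 had -0.46 ± 0.18 (SE, n = 3 lines; limma adjusted p = 0.15). Pseudogenes of the other 27 genes held 0.0780% to 0.200% of the sum in each library.

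RPS20 had 93.2, 24.7 and 82.2 RPKM in hypoxic SUM1315, SKBR3 and T47D cells, against 82.1, 67.8 and 71.3 RPKM in normoxic cells of the same lines. RPS20 was slightly higher under hypoxia in SUM1315 and T47D and lower in SKBR3, with log2 ratios of 0.18 (SUM1315), -1.42 (SKBR3) and 0.20 (T47D). The mean was -0.35 ± 0.28 (SE, n = 3 lines; limma adjusted p = 0.46), with an interval of -0.97 to 0.28, and 0.19 (adjusted p = 0.52) without SKBR3. It had the largest SE of the 28.

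RPS6, the substrate of the S6 kinases downstream of mTORC1, and RPS23, a protein of the decoding centre that an oxygen-dependent prolyl hydroxylase modifies, lay just short of the threshold. RPS6 had 311, 200.2 and 197 RPKM in hypoxic SUM1315, SKBR3 and T47D cells, against 408, 265 and 393 RPKM in normoxic cells of the same lines. Its log2 ratio was -0.99 in T47D and -0.39 and -0.40 in SUM1315 and SKBR3, and its log2 fold change -0.59 ± 0.17 (SE, n = 3 lines; limma adjusted p = 0.066). Without T47D it was -0.39 (adjusted p = 0.28). RPS23 had 139, 102 and 207 RPKM in hypoxic SUM1315, SKBR3 and T47D cells, against 189.6, 163 and 295 RPKM in normoxic cells of the same lines. RPS23 had log2 ratios of -0.45 (SUM1315), -0.68 (SKBR3) and -0.51 (T47D), its log2 fold change being -0.55 ± 0.15 (SE, n = 3 lines; limma adjusted p = 0.059).

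RPS15 and RPS16, head proteins near the decoding and peptidyl sites, did not overlap between groups and still did not pass. RPS15 had 393, 352 and 557 RPKM in hypoxic SUM1315, SKBR3 and T47D cells, against 642, 618 and 652 RPKM in normoxic cells of the same lines. RPS16 had 391, 419 and 344 RPKM in hypoxic SUM1315, SKBR3 and T47D cells, against 557, 584 and 460.2 RPKM in normoxic cells of the same lines. Their log2 fold changes were -0.58 ± 0.16 (SE, n = 3 lines; limma adjusted p = 0.063) for RPS15 and -0.47 ± 0.14 (SE, n = 3 lines; limma adjusted p = 0.078) for RPS16. Without T47D RPS15 passed (-0.76, adjusted p = 0.039).

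RPS27A and FAU are made as fusions, RPS27A behind ubiquitin and FAU behind a ubiquitin-like protein. RPS27A had 178, 152 and 164 RPKM in hypoxic SUM1315, SKBR3 and T47D cells, against 256, 185 and 286 RPKM in normoxic cells of the same lines. All hypoxic values of RPS27A were below all normoxic ones, and the log2 fold change was -0.53 ± 0.16 (SE, n = 3 lines; limma adjusted p = 0.074). FAU had 313, 329.8 and 711 RPKM in hypoxic SUM1315, SKBR3 and T47D cells, against 439, 444 and 825 RPKM in normoxic cells of the same lines. FAU was lower by a smaller margin, at -0.38 ± 0.15 (SE, n = 3 lines; limma adjusted p = 0.15), and its groups overlapped through T47D, where it was highest.

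At the other end stood RPS28, RPSA, RPS21, RPS29 and RPS9. RPS28, a small head protein near the mRNA exit, had the single log2 fold change above 0. RPS28 had 39.8, 16.0 and 139 RPKM in hypoxic SUM1315, SKBR3 and T47D cells, against 33.9, 13.4 and 136 RPKM in normoxic cells of the same lines. It differed far more between lines than between oxygen levels, with T47D highest and SKBR3 lowest. Its log2 ratios were 0.23 (SUM1315), 0.24 (SKBR3) and 0.03 (T47D), and its log2 fold change was 0.16 ± 0.15 (SE, n = 3 lines; limma adjusted p = 0.50), with an interval of -0.17 to 0.50. KANK3 overlaps its exons on the other strand.

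RPSA, also known as a precursor of the laminin receptor, was close to level. RPSA had 129, 125 and 59.5 RPKM in hypoxic SUM1315, SKBR3 and T47D cells, against 128, 130.1 and 65.2 RPKM in normoxic cells of the same lines. Its log2 ratios were 0.01 (SUM1315), -0.06 (SKBR3) and -0.13 (T47D), and the log2 fold change was -0.06 ± 0.15 (SE, n = 3 lines; limma adjusted p = 0.82), with an interval of -0.39 to 0.27.

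RPS21 had 309, 191 and 316 RPKM in hypoxic SUM1315, SKBR3 and T47D cells, against 396, 194 and 377 RPKM in normoxic cells of the same lines. RPS21, a protein absent from bacteria, was level in SKBR3 (log2 ratio -0.02) and slightly lower in SUM1315 and T47D, its log2 fold change being -0.21 ± 0.15 (SE, n = 3 lines; limma adjusted p = 0.40). RPS29 had 11.1, 5.80 and 13.9 RPKM in hypoxic SUM1315, SKBR3 and T47D cells, against 11.8, 8.17 and 16.2 RPKM in normoxic cells of the same lines. RPS29, a zinc-binding head protein, had the lowest RPKM of the 28 in every library. On a transcript of 296 bases its values stand for about 47.5 to 116 reads or read pairs a library. The SE of its log2 fold change was the smallest of the 28 in the main fit, where the variance is moderated along a trend with level. Without that trend the SE was 0.134, above the 0.126 of RPS14, so it does not mark RPS29 as the most precisely measured. RPS9 had 254, 169 and 169 RPKM in hypoxic SUM1315, SKBR3 and T47D cells, against 289, 196 and 224 RPKM in normoxic cells of the same lines. RPS9, which binds rRNA in the body, stood at 87.9%, 86.2% and 75.4% of its normoxic RPKM in SUM1315, SKBR3 and T47D. Log2 fold changes were -0.24 ± 0.14 (SE, n = 3 lines; limma adjusted p = 0.31) for RPS29 and -0.27 ± 0.15 (SE, n = 3 lines; limma adjusted p = 0.28) for RPS9.

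RPS12, a head protein, had -0.36 ± 0.16 (SE, n = 3 lines; limma adjusted p = 0.18), with log2 ratios of -0.13 (SUM1315), -0.62 (SKBR3) and -0.34 (T47D).

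The RPKM of the 28 mRNAs spanned a wide range, with RPS29 the lowest in every library. The annotation and counting rule behind the values are not given. RPKM of unlike genes therefore need not compare as mRNA levels. The highest was 80.3, 72.1 and 61.7 times the lowest in hypoxic SUM1315, SKBR3 and T47D, and 96.3, 95.0 and 85.5 times in normoxic cells. The middle lay at 247, 160.2 and 224 RPKM (medians) in hypoxic SUM1315, SKBR3 and T47D, against 341, 259 and 385 RPKM in normoxic cells. The SD of the log2 levels among the 28 was 1.33, 1.43 and 1.30 in hypoxic cells and 1.44, 1.51 and 1.37 in normoxic cells, lower under hypoxia in each line (exact paired permutation test, two-sided p = 0.25, the smallest that 3 pairs allow). The order of the mRNAs was largely kept: hypoxic and normoxic log2 levels correlated across the 28 at 0.98 (SUM1315), 0.96 (SKBR3) and 0.98 (T47D; Pearson; the pairs share their line).

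Between lines the normoxic log2 levels of the 28 correlated at 0.91 (SUM1315 with SKBR3), 0.89 (SUM1315 with T47D) and 0.83 (SKBR3 with T47D). By rank among the 28, counted from the highest, RPS4X and RPS26 differed most between normoxic lines. RPS4X was at rank 15 (SUM1315), 10 (SKBR3) and 23 (T47D), and RPS26 at rank 13 (SUM1315), 6 (SKBR3) and 2 (T47D). The log2 ratios to normoxia were less alike. They correlated at 0.27 (SUM1315 with SKBR3), 0.61 (SUM1315 with T47D) and 0.21 (SKBR3 with T47D) across the 28, and at 0.48, 0.52 and 0.44 when RPS20 was left out. Genes are not independent replicates, and these values are descriptions.

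**Figure D3:**
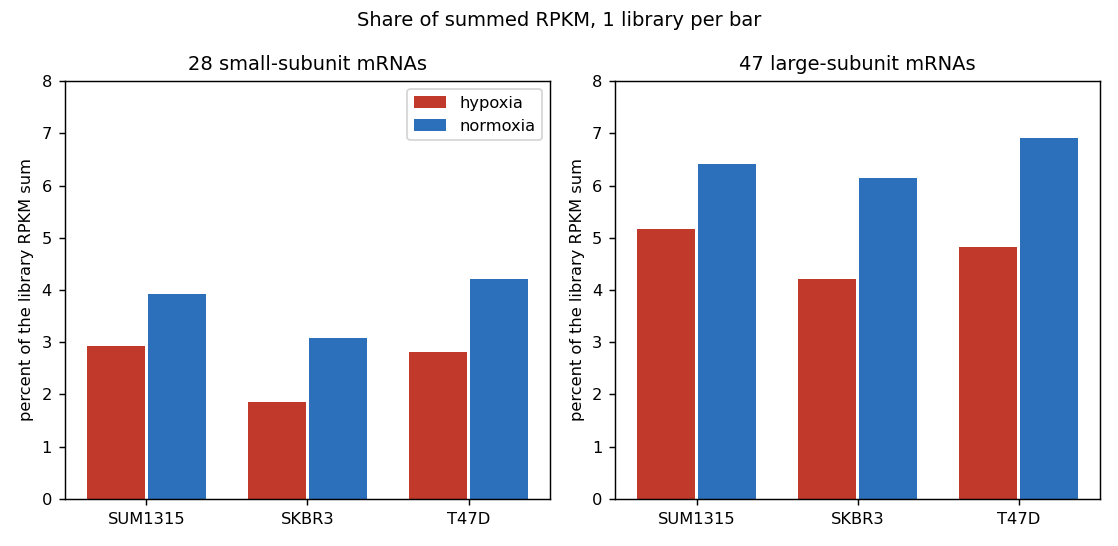
Percent of the summed RPKM of each library held by the 28 small-subunit mRNAs (left) and by 47 large-subunit mRNAs (right), hypoxia in red and normoxia in blue, 1 library per bar. Small-subunit mRNAs held 1.85% to 2.93% in hypoxic and 3.07% to 4.21% in normoxic cells.

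As a share of the summed RPKM of a library, the 28 mRNAs made up 2.93% in hypoxic SUM1315, against 3.91% in normoxic SUM1315. They made up 1.85% in hypoxic SKBR3, against 3.07% in normoxic SKBR3, and 2.82% in hypoxic T47D, against 4.21% in normoxic T47D. The mean was 2.53% ± 0.59 in hypoxic and 3.73% ± 0.59 in normoxic cells (SD, n = 3), and the paired difference was -1.20 ± 0.20 percentage points (SD, n = 3 pairs; exact paired permutation test, two-sided p = 0.25, the smallest that 3 pairs allow). The share was lower in 3 of 3 lines. Of the 100 rows with the highest RPKM in a library, 8, 4 and 7 were among the 28 in hypoxic SUM1315, SKBR3 and T47D, against 12, 9 and 11 in normoxic cells.

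Of 47 mRNAs of the large (60S) subunit, 19 fell, none rose and 28 did not pass (limma; 36 were lower and none higher at an unadjusted p under 0.05), with a median of -0.55. RPL26 (-1.07 ± 0.20; here and in the lists that follow, log2 fold change ± SE over 3 lines) and RPL27A (-0.90 ± 0.16) were lowest, and RPL41 (0.14 ± 0.15) and RPL4 (0.07 ± 0.16) highest. Summed RPKM of the 28 small-subunit mRNAs was 0.565, 0.441 and 0.584 of that of the 47 large-subunit mRNAs in hypoxic SUM1315, SKBR3 and T47D, against 0.611, 0.501 and 0.610 in normoxic cells. That ratio was lower under hypoxia in 3 of 3 lines, by 0.0441 ± 0.0170 (SD, n = 3 pairs; exact paired permutation test, two-sided p = 0.25, the smallest possible).

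**Figure D4:**
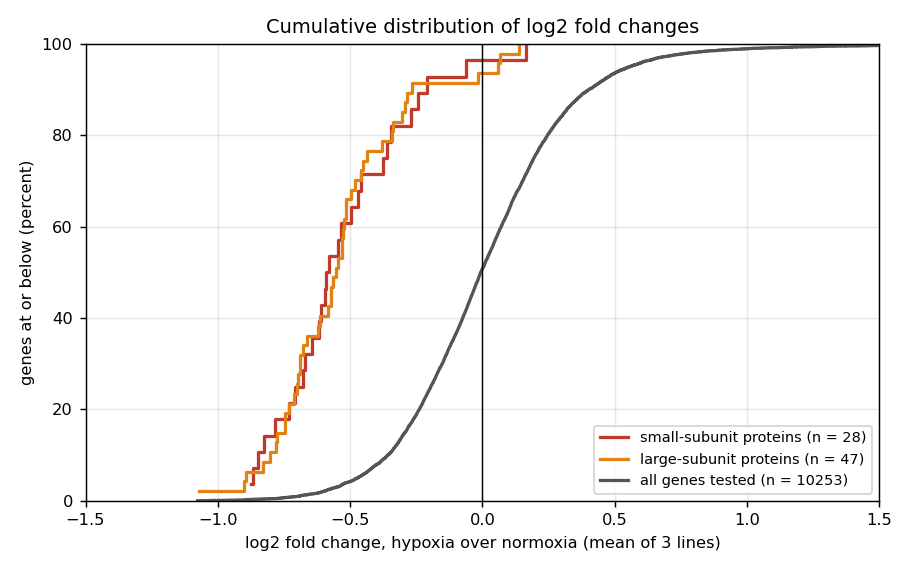
Cumulative percent of genes (vertical axis) at or below a log2 fold change of hypoxia over normoxia (horizontal axis, mean of 3 lines) for the 28 small-subunit genes, 47 large-subunit genes and 10253 genes tested. The 2 ribosomal curves run close together, with medians of -0.59 and -0.55, and left of the curve of all genes, whose median is -0.01.

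By place in the subunit, of 12 head proteins 4 fell, with a median of -0.50, and of 16 proteins of body and platform 7 fell, with a median of -0.61. Of 13 proteins with a counterpart in bacteria 3 fell, with a median of -0.50, and of 15 without one 8 fell, with a median of -0.62. None of these contrasts was tested. Across the 28, the log2 fold change correlated with the log2 mean level at -0.40 (Pearson) and -0.18 (Spearman) and with coding length at -0.14 and -0.15.

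By start-site sequence, the 18 genes with 5 or more pyrimidines from the annotated start had a median of -0.57, with 8 called lower, and the 7 matched genes with a shorter run or none had a median of -0.58, with 2 called lower. Among the sequences printed above, RPS21, with 12 pyrimidines, had a log2 fold change of -0.21, and RPS13 and RPS25, with 6 each, had -0.87 and -0.82. The length of the run and the log2 fold change correlated at -0.10 (Pearson) and 0.09 (Spearman) over 25 genes.

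**Figure D5:**
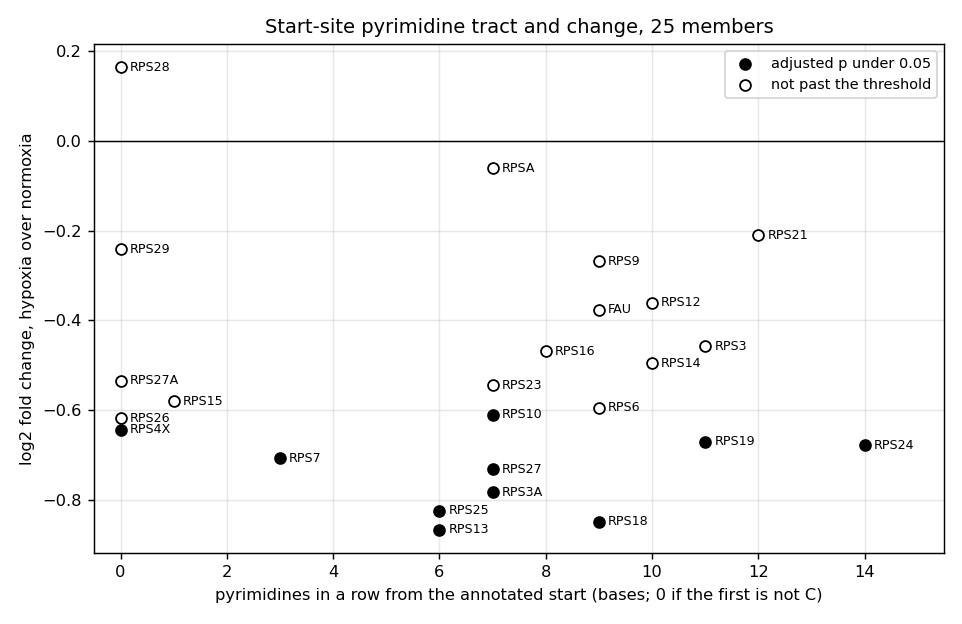
Log2 fold change of hypoxia over normoxia (vertical axis) against the number of pyrimidines in a row from the annotated start (horizontal axis, 0 where the first base is not C) for 25 of the 28 genes. Filled points have an adjusted p under 0.05. RPS24 has the longest run, 14 bases, at -0.68, and the 5 genes with none are RPS28 (0.16), RPS29 (-0.24), RPS27A (-0.53), RPS26 (-0.62) and RPS4X (-0.64, called lower).

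Of 15 other mRNAs known for a TOP motif, which code for translation factors and related proteins, 2 rose and none fell (limma; 6 were higher and 1 lower at an unadjusted p under 0.05), with a median of 0.18. Start sites were matched for 9 of the 15 alone, and 7 of these 9 had 5 or more pyrimidines from the annotated start. The elongation factor EEF2 (1.17 ± 0.19, limma adjusted p = 0.010) and the initiation factor EIF4B (0.81 ± 0.15, limma adjusted p = 0.018) rose. TPT1 (-0.53 ± 0.17) and EEF1B2 (-0.35 ± 0.17) were lowest and did not pass. EEF2 had 722, 326 and 300.0 RPKM in hypoxic SUM1315, SKBR3 and T47D cells, against 284, 211 and 103 RPKM in their normoxic counterparts, higher under hypoxia in every line.

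Of 11 regulators of TOP mRNAs and mTORC1 signalling, 1 rose and none fell (limma; 5 were higher and 1 lower at an unadjusted p under 0.05), with a median of 0.12. It was DDIT4, an inhibitor of mTORC1, at 3.60 ± 0.17 (SE, n = 3 lines; limma adjusted p = 1.1e-05). RPS6KB2, an S6 kinase, was next at 0.59 ± 0.21, and the S6 kinase RPS6KB1 (-0.42 ± 0.14) and the TOP-binding protein LARP1 (-0.31 ± 0.15) were lowest. RPS6KB2, RPS6KB1 and LARP1 did not pass.

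Of 24 assembly factors of the small subunit 4 fell, none rose and 20 did not pass (limma; 9 were lower and none higher at an unadjusted p under 0.05), with a median of -0.22. LTV1 (-0.98 ± 0.14, limma adjusted p = 0.0069) and PNO1 (-0.82 ± 0.14, limma adjusted p = 0.013), which act on late 40S precursors, were lowest, and RRP36 (-0.59 ± 0.15) and the rRNA methyltransferase DIMT1 (-0.59 ± 0.14) also fell. RIOK2 (0.26 ± 0.12) and TSR3 (0.26 ± 0.16) were highest and did not pass. Of 14 partners and modifiers of single 40S proteins none passed (limma; none at an unadjusted p under 0.05), with a median of -0.08. ZNF598, the ligase for RPS10 and RPS20, was lowest at -0.36 ± 0.16, PRMT3, which methylates RPS2, had -0.28 ± 0.16, and ZNF277 (0.26 ± 0.12) and G3BP1 (0.17 ± 0.12) were highest. The RPS26 chaperone TSR2 had 0.02 ± 0.16.

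Reads of overlapping genes could touch some values, since the library kit named in the labels does not mark strand in its basic form and no source used here gives the counting rule. Another annotated gene overlapped exons of 11 of the 28 genes, for 7 of them on the other strand alone. Of these 11, 6 were called lower, with a median of -0.61, and of the other 17, 5 were called lower, with a median of -0.50. Genes of snoRNAs lie inside 7 of the 28, among them RPSA, RPS2, RPS3, RPS12 and RPS13; of these 7, 2 were called lower, with a median of -0.46, against 9 of the other 21, with a median of -0.59.

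The libraries carried their labels' marks. SUM1315 had 113 to 121 RPKM of AXL and both other lines under 1; ERBB2 was 743 RPKM in hypoxic and 615 RPKM in normoxic SKBR3; and PGR was 11.0 RPKM in hypoxic and 9.94 RPKM in normoxic T47D. The leukocyte and endothelial markers PTPRC, CD3E and PECAM1 were at or below 0.0952 RPKM throughout. Of 5 listed hypoxia genes VEGFA, SLC2A1, PDK1 and BNIP3 rose, by 1.37 to 2.80 on the log2 scale. CA9 did not pass the filter on low values. It had 0.0283, 9.40 and 0.946 RPKM in hypoxic SUM1315, SKBR3 and T47D, against 0, 0.316 and 0 RPKM in normoxic cells. By the steps in the values, 1 RPKM on 1 kb of transcript stood for 21.7 to 33.4 reads or read pairs, and each library had 9675 to 10842 genes with at least 1 RPKM. Across tested genes the 2 libraries of a line correlated at 0.972 to 0.980, and those from unlike lines at 0.678 to 0.846.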

How the data were processed

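Polysome RNA-seq libraries of 3 cell lines, 1 per line and oxygen level, were compared in hypoxia and normoxia. The authors deposited 1 table of values per gene. The unit is not named there and was taken as RPKM, deposited without counts, because low values of genes step with transcript length. Per the submitters' processing notes, Trimmomatic, HISAT2, SAMtools and Partek were used with GRCh38 (hg38), while no annotation, strand setting or version was given in the sources used here. Such values are shares of a library and cannot show a change in total RNA.

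From these values log2(RPKM + 1) was computed for rows with RPKM not under 1 in 3 or more of 6 libraries. It was fitted with limma 3.58.1 in R 4.3.3, with oxygen and cell line as terms and a moderated variance with trend (2 residual and 8.02 prior degrees of freedom). P-values were adjusted over all 10253 genes by Benjamini-Hochberg, and a call is an adjusted p under 0.05. Single values were compared by exact paired permutation tests, two-sided. The line pairs the libraries by design, and deviations from the group means correlated at 0.97, 0.94 and 0.94 within lines.

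Depth was read from the steps: 60.6% to 63.6% of the 2569 to 2794 low values examined per library lay within 0.02 of a whole read, where chance gives 4%. This is too few to recover counts, so no count test was run. On 1 kb of transcript 3 reads equal 0.0897 to 0.138 RPKM, which covers counting error only. On simulated data of 10253 genes the fit called 100 of 100 genes changed by 1 and 79 of 100 changed by 0.6 on the log2 scale. There were 11 false calls among the genes left unchanged. The simulation gave every gene the same spread and every line the same change, unlike the data. These shares are therefore not the power of the test in these libraries.

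The members and lists were chosen with earlier results of these data known. Values in every library are given for the 5 lowest and 5 highest fold changes, a panel chosen by role and any member with lines of opposite sign; the values of RPS7, RPS12, RPS15, RPS16 and RPS23, the calls of RRP36 and DIMT1, TSR2 and the libraries of EEF2 were added after their values were seen. Of each list the 2 largest rises and falls are named. Alternatives changed the pseudocount, filter, scaling, block, variance model and the lines included. Gene positions are from GENCODE release 29.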

Additional observations from a re-analysis of the deposited data

Results flagged for a closer look

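In 2 of the 28 genes the lines moved in opposite directions, with 1 pair of libraries each, and the difference between lines was not tested. RPS20 had log2 ratios of hypoxia over normoxia of 0.18 (SUM1315), -1.42 (SKBR3) and 0.20 (T47D). RPSA had log2 ratios of 0.0086 (SUM1315), -0.062 (SKBR3) and -0.13 (T47D), all of them small.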

How the results depend on the processing

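Of the 28 mRNAs, 11 were called lower. The count was 3 with a pseudocount of 5 in place of 1, 0 without the filter on low values (18 at an unadjusted p under 0.05) and 0 without the replicate block, that is without pairing by line (2 at an unadjusted p under 0.05; limma in each case). It ran from 2 to 8 when 1 line was left out, with 8 without SUM1315, 2 without SKBR3 and 5 without T47D. The counts with a line left out do not compare directly, since the prior degrees of freedom were 70.1, 7.98 and 11.5 in that order. Over all genes 0 were called lower and 0 higher without the filter or without the block, so these losses are not particular to the 28. Of all genes, 2715 of 27552 without the filter and 68 of 10253 without the block had an unadjusted limma p under 0.05, in either direction. With a pseudocount of 5 RPS3A, RPS18 and RPS25 kept their calls, and the other 8 had adjusted p values of 0.054 to 0.071. Median-ratio and quantile scaling each kept 8 calls and lost RPS4X, RPS10 and RPS27.

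RPS20 ranged from -0.62 to 0.19 with 1 line left out, and the 0.19 (adjusted p = 0.52) was without SKBR3. Of the other log2 fold changes that were not called, leaving out 1 line moved these by over 1.5 times: RPS2 to -0.26, RPS12 to -0.23, RPS26 to -0.41 and RPS29 to -0.15 without SKBR3, RPS21 to -0.14 without SUM1315, RPS6 to -0.39 without T47D, and RPSA to -0.096 without SUM1315 and -0.026 without T47D. The median of the 28 stayed between -0.61 and -0.49 over 15 alternatives. Those that changed the filter, block or variance model left it at -0.59, since they cannot alter the log2 fold changes of the 28. Of 420 values of single genes under the 15 alternatives, 351 kept direction and side of the threshold, 58 lost a call, 10 gained one and 1, that of RPS20, changed sign. Without the filter or the block no gene at all was called, so there the genes not called before could only be counted as kept. As each line gave a single pair of libraries, the 3 lines are the only replication.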
